A study of Drosophila melanogaster with 6 samples.

Results

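The Dpr, DIP, Beat and Side genes encode immunoglobulin-family proteins of the cell surface. They were chosen by symbol, as every row of the deposited count table whose name begins with dpr and a digit, DIP- or beat-, or is side. This gave 44 of 16666 symbols: 21 Dpr, 9 DIP, 13 Beat and 1 Side gene.

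RNA was measured in astrocytes, the glia that infiltrate the synaptic neuropil, sorted from brains of Drosophila melanogaster larvae at the third instar (L3, 2 libraries) and from adults (4 libraries). All flies carried UAS-mCD8::GFP, Alrm-Gal4 and UAS-RedStinger, so that the alrm promoter, active in astrocytes, drove the membrane GFP and the red nuclear reporter. Each library came from a pool of 1000 red cells, and larval brains were digested for 15 min and adult brains for 30 min, so digestion time and stage cannot be told apart. The age of the adults is not given, and nothing says that libraries of a stage came from separate dissections, so p-values measure the spread between these libraries, which may be technical.

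In the fly, Dpr proteins (defective proboscis extension response) on 1 cell bind DIP proteins (Dpr-interacting proteins) on another, and the pairs are known for matching neurons to their synaptic partners. The Beat proteins (Beaten path) are receptors that bind Side proteins (Sidestep), and Beat-Ia with Side guides motor axons to muscle. These families are studied mainly in neurons, where single cell types carry different combinations of members. The series asked how astrocytes differ before and after neuronal remodelling, and for these families that is a question of which recognition proteins the glia around the axons could carry.

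The L3 libraries held 2641671 and 1923097 counts and the adult libraries 745129 to 1287871, so that 1 count was worth 0.379 and 0.520 CPM in L3 and 0.776 to 1.34 CPM in adult (CPM, the count scaled to a common library total in the usual unit). The correlation of log2 CPM was 0.892 between the L3 libraries, 0.726 to 0.806 within adult and 0.560 to 0.667 between stages. All 9 astrocyte markers had counts in both stages, and their summed level was 3672 and 5576 CPM in L3 and 9792 to 14748 CPM in adult. By the edgeR test given below, 6 rose, Gat and Dat among them, and 2 fell, Nrt and wun2. Over all tested genes 9.65% rose and 13.1% fell. By near-identical counts Gs2, repo and e, which rose, were grouped with Evi5, CG7156 and Nelf-A, and Nrt with CG13025. Those 4 calls cannot be assigned to the markers alone. The driver's own gene alrm was at 861 and 1346 CPM in L3 and between 994 and 1628 CPM in adult. Of 18 neuron markers 17 had counts in both stages and futsch had none, and the summed level of the list was 143 and 345 CPM in L3 and 450.03 to 726 CPM in adult. Markers of further cell types were present. Those of cortex and ensheathing glia summed to 62.8 and 149 CPM in L3 and 185 to 253 CPM in adult, where zyd and Eaat2 of 4 rose. Of 4 hemocyte markers Hml rose, from 40.1 and 24.4 CPM to between 847 and 1527 CPM, and NimC1, He and srp were at or under 23.0 CPM in every library. Of 6 photoreceptor markers ninaE and norpA rose and 0 fell. The highest of them, inaD, was at 1371 and 793 CPM in L3 and between 492 and 841 CPM in adult. The photoreceptor list summed to 1389 and 817 CPM in L3 and to between 603 and 891 CPM in adult. By near-identical counts ninaE was grouped with Ask1, Rh4 with CG9715 and inaD with RpL23. The part of neurons and these further cell types in the family counts was not tested.

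Family genes were present at the edge of detection. In L3 37 of the 44 had at least 1 count and in adult 40 had, 33 in both stages and none in neither. Over all symbols of the table the shares were lower, 77.6% in L3 and 70.2% in adult, against 84.1% and 90.9% of the family genes. The levels, in contrast, were low. The median level was 1.31 CPM in L3 and 1.91 CPM in adult, against 7.14 and 5.80 CPM over all symbols. In L3 6 of the 44 genes averaged 10 CPM or more and in adult 8 did, 13.6% and 18.2%, where 45.0% and 42.0% of all symbols did. None averaged 50 CPM in L3 and 2 did in adult, DIP-iota and dpr18. Because the libraries were made from the 3′ ends of transcripts, CPM values were compared between genes without division by length.

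**Figure D1:**
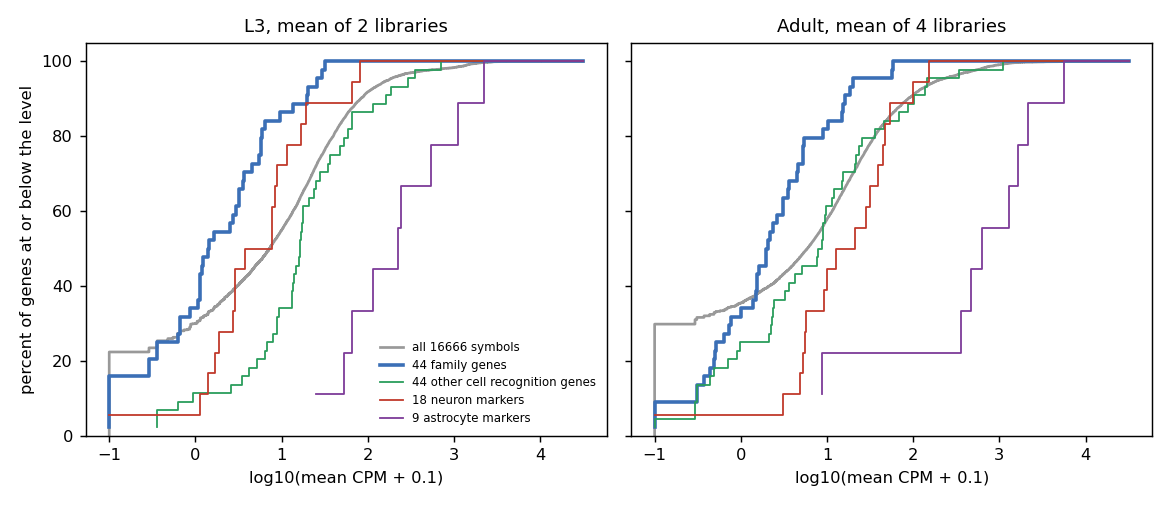
Cumulative share of genes (y axis, percent) at or below a mean level (x axis, log10 of the mean CPM plus 0.1) in L3 (left, 2 libraries) and adult (right, 4 libraries), for the 44 family genes, all symbols and 3 marker or recognition lists. The family curve lies left of all symbols over most of the range, and its highest mean is 32.0 CPM in L3 and 58.8 CPM in adult.

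Fewest family genes were seen in the shallowest library. The L3 libraries had counts in 26 and 30 family genes, and the adult libraries in 25, 17, 20 and 25. After every library was thinned to 745129 counts, the total of the shallowest, the L3 libraries had 21 and 27 and the adult libraries 22, 17, 19 and 18. L3 library 2 stood highest both ways, and L3 library 1 fell within the adult range once thinned. Only 6 genes had a count in every library, 13.6% of the families against 39.8% of all symbols, and these were DIP-iota, dpr18, dpr19, dpr20, dpr12 and dpr4. The summed level of the 44 genes was 166 and 270 CPM in L3 and 291, 197, 321 and 318 CPM in adult. Adult library 2 thus lay between the L3 libraries and the other 3 adult libraries lay above both.

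**Figure D2:**
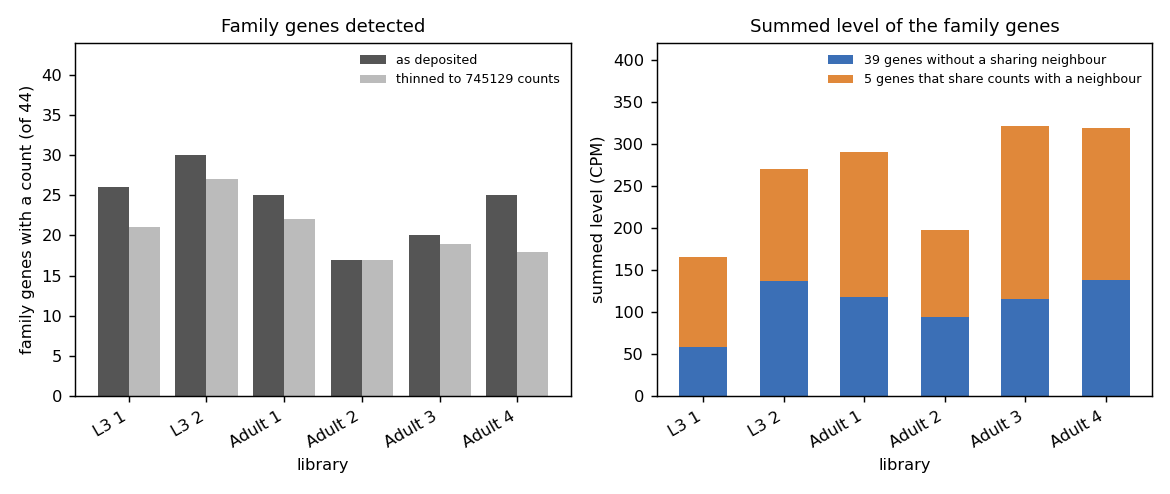
Left, number of the 44 family genes with a count in each library (y axis), as deposited and after thinning to 745129 counts; right, their summed level (y axis, CPM), split into 5 genes whose counts differ by under 5% from those of a neighbouring gene and the other 39. The 39 genes sum to 58.3 and 137 CPM in the L3 libraries and to between 93.9 and 138 CPM in the adult ones.

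A large part of the family counts could not be assigned to the family genes. Of the 14 family genes with at least 30 counts over the 6 libraries, 5 had a neighbour at most 10 rows away in the table whose counts differed by under 5% of their sum. The share of all symbols with at least 30 counts that had such a neighbour was 58.5%, against 35.7% of these 14. The 5 genes were DIP-iota, dpr14, dpr18, dpr19 and dpr20. They were the 5 most abundant members by counts and held 1244 of the 2155 family counts, or 57.7%.

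The counts of dpr18 were the same in all 6 libraries as those of Nipsnap, which encodes a conserved mitochondrial protein, and differed by 4.78% from those of CG12395 on its other side. The DIP-iota counts matched those of CG11050 exactly, and those of dpr20 matched CG13890, named Dci in RefSeq, an enzyme of fatty acid oxidation. The dpr19 counts differed by 2 from those of gny, which encodes a glucosyltransferase of N-glycan assembly, and the dpr14 counts by 3 from those of bys, a ribosome assembly factor. In the Ensembl annotation of the fly the exons of none of these pairs overlap. Nipsnap, CG11050, CG13890 and bys each lie on the opposite strand from the family gene with the ends of both genes facing each other, while gny and dpr19 lie on the same strand. The counts do not separate the genes of a pair, and the source of the RNA was not tested. DIP-iota had a further copy: CG15406, more than 10 rows away, had the same counts in 5 libraries and 88 instead of 89 in adult library 4. The counts of dpr14 differed by 4.64% from those of spict, also more than 10 rows away. Both distant rows came from a search over all rows, and whether such likeness arises by chance was not tested.

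**Figure D3:**
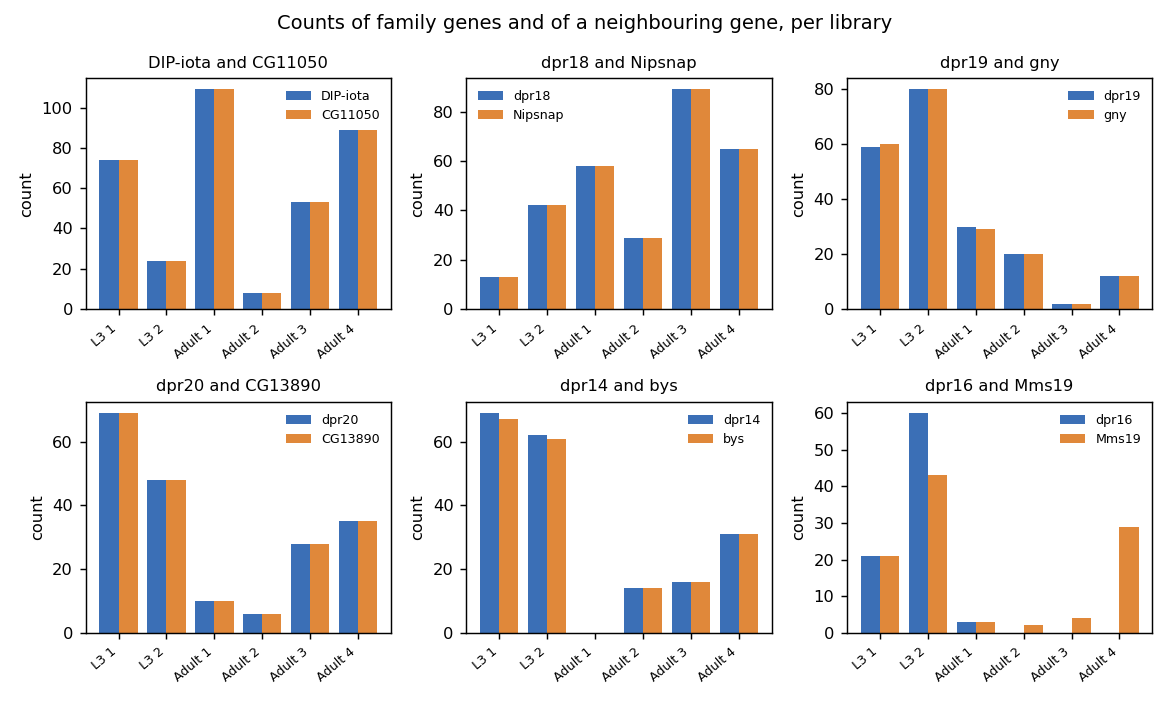
Deposited counts (y axis) of 6 family genes and of 1 neighbouring gene each in the 6 libraries (x axis). The bars are equal or nearly so in the first 5 panels, where the counts differ by 0 to 3 in all, and part in the last, where dpr16 had 60 counts and Mms19 43 in L3 library 2 and dpr16 had 0 and Mms19 29 in adult library 4.

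Among the Dpr genes, dpr18 was at 4.92 and 21.8 CPM in L3 and at 48.4, 38.9, 97.5 and 50.5 CPM in adult. Every adult library was above both L3 libraries, which themselves differed more than 4-fold. dpr19 was at 22.3 and 41.6 CPM in L3 and at 25.0, 26.8, 2.19 and 9.32 CPM in adult, where the stages overlapped. dpr20 was at 26.1 and 25.0 CPM in L3 and at 8.35, 8.05, 30.7 and 27.2 CPM in adult, so that its adult libraries fell on both sides of L3. dpr14 was at 26.1 and 32.2 CPM in L3 and at 0, 18.8, 17.5 and 24.1 CPM in adult, all below L3. The counts of these 4 genes do not separate them from Nipsnap, gny, Dci and bys, so the values may belong to either gene of a pair.

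Of the Dpr genes whose counts no neighbour shared, dpr12 had the most counts over the 6 libraries. Dpr12 binds DIP-delta, and the pair acts in neurons of the mushroom body, the learning centre whose axons are remodelled at metamorphosis. It was at 1.51 and 17.7 CPM in L3 and at 25.9, 10.7, 8.77 and 34.9 CPM in adult, with L3 library 2 inside the adult range. dpr8 was at 3.41 and 7.28 CPM in L3 and at 0, 17.4, 23.0 and 19.4 CPM in adult, above L3 in 3 of 4 adult libraries. dpr9 was at 1.14 and 7.80 CPM in L3 and at 0.835, 0, 16.4 and 18.6 CPM in adult. Both genes were highest in adult libraries 3 and 4, and both had no count in 1 adult library.

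dpr16 was at 7.95 and 31.2 CPM in L3, at 2.50 CPM in adult library 1 and had no count in adult libraries 2, 3 and 4. The stages did not overlap, which also held, with adult lower, for 22.9% of all genes tested below, where dpr16 was not among them. The 81 L3 counts against 3 adult counts gave a pooled ratio of 24.5 (95% counting interval 8.09 to 121). L3 library 2 held 71.4% of its counts. dpr13 had the same shape at a lower level, with 6.06 and 5.20 CPM in L3, 1.67 CPM in adult library 1 and no count in the other 3, and its pooled ratio was 11.8 (2.95 to 103). These intervals cover counting error only. dpr13 had 28 counts in all and was picked out after its values were seen.

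dpr6 had no count in L3, 36.2 CPM in adult library 2, 4.38 CPM in adult library 3 and none in adult libraries 1 and 4. Its adult mean of 10.2 ± 17.5 CPM (SD, n = 4) was at least 15.5-fold the level that 3 counts over both L3 libraries allow, 0.657 CPM, but 87.1% of its counts lay in 1 library. dpr3 was at 9.09 and 2.60 CPM in L3 and at 0, 0, 9.86 and 10.9 CPM in adult. dpr4 was at 5.68 and 5.72 CPM in L3 and at 11.7, 2.68, 1.10 and 2.33 CPM in adult, and its counts differed by 10.3% from those of CG6790, 6 rows away. dpr1, the founding member of the family, was at 3.41 and 9.36 CPM in L3 and at 0.835, 0, 8.77 and 2.33 CPM in adult. In all 3 genes the stages overlapped.

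The other 9 Dpr genes had 3 to 28 counts each. Of these dpr13 was the highest in L3 by mean level, at 5.63 CPM, and dpr17 the highest in adult, at 3.01 CPM, all of it in adult library 3 (12.1 CPM).

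Of the 9 DIP genes 1 had more than 30 counts. DIP-iota was at 28.0 and 12.5 CPM in L3 and at 91.0, 10.7, 58.1 and 69.1 CPM in adult, with adult library 2 below both L3 libraries and the other 3 above. Its values are also those of CG11050 and nearly those of CG15406. The next, DIP-beta, had 12 counts in L3 library 2, 12 in adult library 1 and none elsewhere. DIP-gamma had 20 counts, the same in every library as the overlapping gene CG11828 on the other strand. DIP-alpha had 9 counts and DIP-delta 6, and DIP-eta, DIP-theta, DIP-epsilon and DIP-zeta had 1 or 2 over all 6 libraries. Without DIP-iota the highest mean level of a DIP gene was 3.48 CPM in L3, for DIP-gamma, and 2.50 CPM in adult, for DIP-beta.

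The 13 Beat genes had 181 counts together, 8 or fewer for 7 of them. beat-IIIc was at 2.27 and 2.60 CPM in L3 and at 0, 0, 1.10 and 20.2 CPM in adult, so that adult library 4 held 68.4% of its counts. beat-IIIb had 1 count in L3, and was at 12.5, 8.05, 0 and 0 CPM in adult. beat-VI, with counts in L3 alone, averaged 1.56 CPM there, all of it in L3 library 2. The beat-Vc counts, 6 in L3 library 1 and 16 in adult library 3, were the same as those of CG5999 and CR46238, and the beat-VII counts, 12 in L3 library 2 and 10 in adult library 4, were the same as those of CR46233. No Beat gene had a count in every library.

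side, the ligand of Beat-Ia, had 10 counts in adult library 1 (8.35 CPM) and none in the other 5 libraries, which in L3 allows a level of up to 0.657 CPM. The neighbouring row CR43476 had the same 10 counts. Its receptor gene beat-Ia had 3 counts in adult library 2 and 2 in adult library 4.

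**Figure D4:**
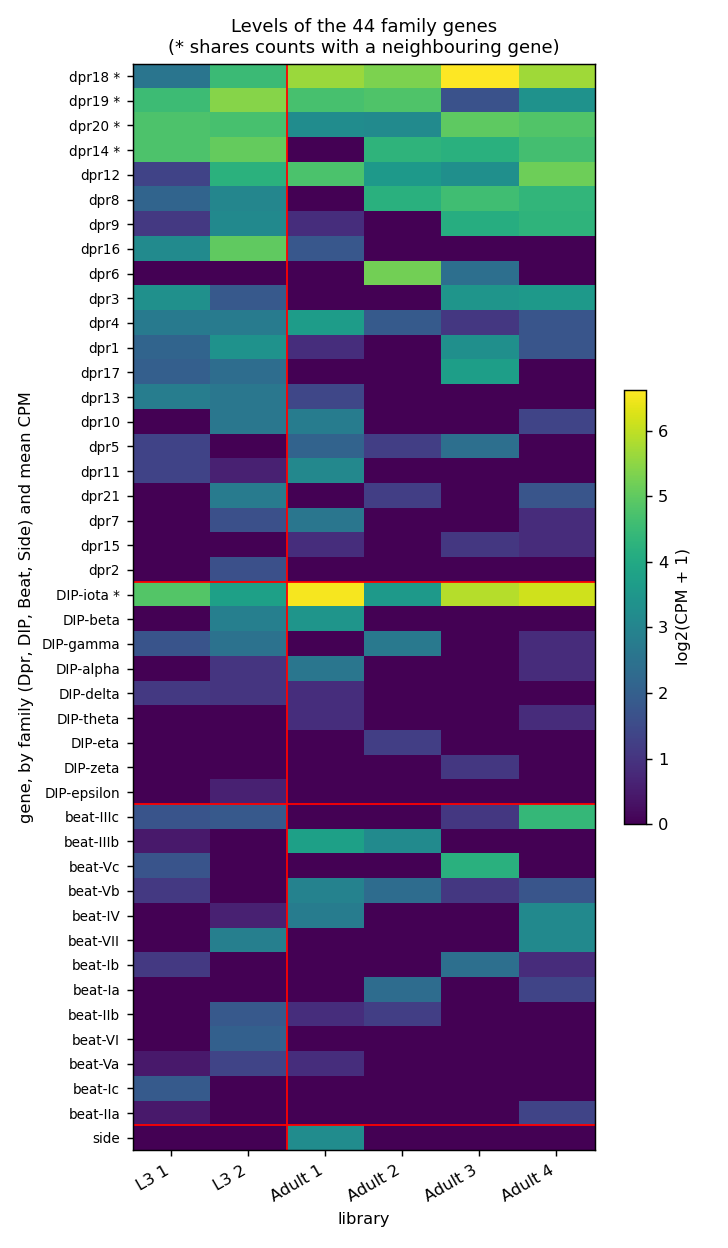
Level of each of the 44 family genes (rows, ordered by family and mean level) in the 6 libraries (columns), as log2 of CPM plus 1; an asterisk marks the 5 genes with at least 30 counts that share them with a neighbour, and red lines part the families and the stages. Colour above the background is continuous across libraries for few rows, such as dpr20 and DIP-iota, and for most rows lies in 1 to 3 libraries.

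Many family genes had counts in few libraries. Of the 23 with 10 to 99 counts, 14 had no count in 3 or more of the 6 libraries, or 60.9%, against 38.9% of all symbols with such counts. That comparison was not matched for level and counts zeros over both stages. Of the 23 genes 15 had only 10 to 29 counts, and of the 8 with 30 to 99 counts 2 had so many zeros, or 25%. In 13 of the 29 with at least 10 counts, over 50% of the counts lay in 1 library. A count in a single library was all that was seen of 7 genes: DIP-eta, DIP-epsilon, DIP-zeta, dpr2, beat-Ic, beat-VI and side. No share over all symbols was taken beside the 13 or the 7 genes.

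Known binding partners, 5 pairs picked after the values were seen, were detected together in 0 to 3 of the 6 libraries. DIP-alpha and its ligand gene dpr10 had counts in the same 3 libraries, L3 library 2 and adult libraries 1 and 4, with 2, 6 and 1 counts of DIP-alpha and 10, 7 and 2 of dpr10. DIP-alpha and its other ligand gene dpr6 shared no library. dpr12 had counts in all 6 libraries and DIP-delta in 3 of them, L3 libraries 1 and 2 and adult library 1, with 3, 2 and 1 counts. dpr11 and DIP-gamma had counts together in both L3 libraries alone, and beat-Ia and side in none. At such counts, absence of a partner was not separable from shallow depth.

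Adult and L3 were compared with edgeR's quasi-likelihood test over 9082 genes, with p-values adjusted by the Benjamini-Hochberg method over all of them. Only 11 family genes passed its filter on low counts, which here asks for about 8.05 CPM in at least 2 libraries, and 33 could not be tested. Of the 11, 1 was called higher and 0 lower, while over all tested genes 9.65% were called higher, 13.1% lower and 22.7% either way. A count of 1 in 11 is no more than that background. The called gene was dpr18, which went from 13.4 ± 12.0 CPM (SD, n = 2) to 58.8 ± 26.3 CPM (SD, n = 4), with a log2 fold change of 2.22 (SE 0.63, edgeR adjusted p = 0.0144). In pools of cells, more cells with the transcript and more transcript per cell cannot be told apart. The test for Nipsnap is the same test, and the call was lost without L3 library 1 (log2 fold change 1.56, adjusted p = 0.227), with edgeR's earlier quasi-likelihood method (adjusted p = 0.0781), and on the 4 libraries numbered 1 and 2 with a replicate block (adjusted p = 0.168) or without it (adjusted p = 0.0980). Of the neuron markers 3 of 14 tested rose, nSyb, Gad1 and Ddc, and 0 fell. By near-identical counts Gad1 was grouped with wit and Faa, and Ddc with CG10561, so these calls cannot be assigned to the markers alone. Of the markers of further cell types, Hml, ninaE, norpA, zyd and Eaat2 rose, and Indy, a surface glia marker, fell. Among these ninaE was grouped with Ask1 and Indy with Cat in the same way. The part of such cells in the dpr18 result was not tested.

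DIP-iota had an unadjusted p of 0.0240 and missed the threshold after adjustment (log2 fold change 1.46, SE 0.60, edgeR adjusted p = 0.0850). dpr19, dpr14 and dpr20 had log2 fold changes from -1.02 to -0.47 and edgeR adjusted p-values of 0.300, 0.331 and 0.664. The 6 tested genes with counts of their own gave no call: dpr12 (1.33, SE 0.84), dpr8 (1.45, SE 0.98), dpr9 (1.22, SE 1.15), dpr3 (-0.23, SE 1.10), dpr1 (-1.05, SE 1.15) and beat-IIIb (4.04, SE 2.17), all as log2 fold changes with edgeR adjusted p-values of 0.189 to 0.907. Standard errors of 0.84 to 2.17 leave these fold changes loosely known, and missing the threshold does not show that the levels were equal. Stages did not overlap for 2 of the 11, dpr18 higher and dpr14 lower, while 37.7% of all tested genes did not overlap, 14.8% higher and 22.9% lower.

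**Figure D5:**
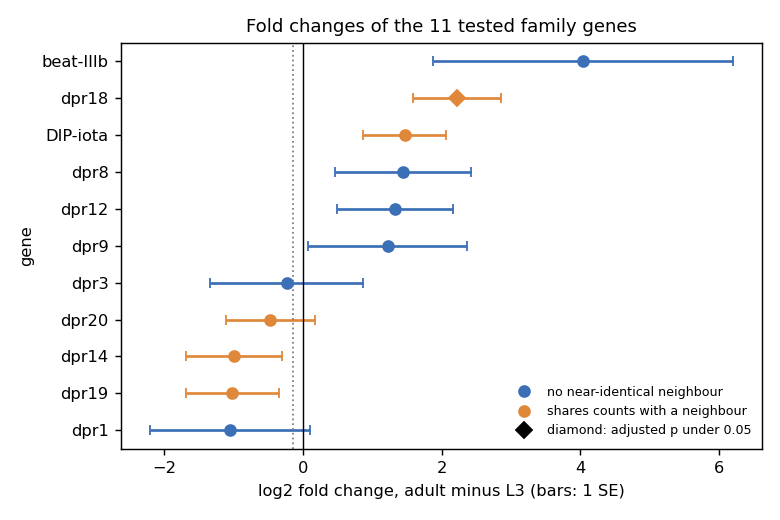
Log2 fold change (x axis, adult minus L3, with bars of 1 SE) of the 11 tested family genes; orange marks the 4 Dpr genes and DIP-iota that share counts with a neighbour, a diamond an edgeR adjusted p under 0.05, and the dotted line the median of all tested genes, -0.14. dpr18 alone was called, at 2.22, and beat-IIIb has the longest bar, with an SE of 2.17.

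dpr16 missed the filter because L3 library 1 lay at 7.95 CPM. When every gene with a count was fitted, it fell (log2 fold change -4.52, SE 1.41, edgeR adjusted p = 0.0425), with dpr18 the other call among the 44, and 7.44% of 13583 genes were called lower in that fit. It was also called lower with 1 row kept per group of neighbours with shared counts (edgeR adjusted p = 0.0237). It missed the threshold with DESeq2 (log2 fold change -4.80, DESeq2 adjusted p = 0.0776). With edgeR on the replicate block (-3.34, adjusted p = 0.223) or the same 4 libraries without it (-3.51, adjusted p = 0.112) dpr16 missed it too. Its looser likeness to Mms19, 28.0% of their summed counts, held in adult library 1, where both had 3 counts, and not in adult library 4, where dpr16 had 0 and Mms19 29.

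Other cell recognition genes, mostly of the immunoglobulin and leucine-rich-repeat classes, were at higher levels. Of 44 in a list of such genes 31 could be tested, and 6 rose and 11 fell, where 9.65% and 13.1% of all tested genes did. Their median level was 16.2 CPM in L3 and 8.24 CPM in adult. Of the 34 with at least 30 counts, 14 shared them with a neighbour, or 41.2%, against 58.5% of all symbols with such counts. Among the called genes these were fipi and Tl, which rose, and Nrt, otk, Dscam2, robo2 and unc-5, which fell. Those calls cannot be assigned to the recognition genes alone. Fas1, which encodes Fasciclin 1, an adhesion protein outside those classes, was at 137 and 191 CPM in L3 and at 288, 309, 281 and 463 CPM in adult and rose (log2 fold change 1.03, SE 0.34, edgeR adjusted p = 0.0344). The receptor phosphatase gene Ptp99A rose from 27.5 ± 13.3 CPM (SD, n = 2) to 102 ± 58.0 CPM (SD, n = 4). The guidance gene trn, tartan, fell from 16.7 to 0.209 CPM, with 1 count in adult.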

How the data were processed

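The authors deposited 1 table of raw counts, whole numbers for each gene symbol in 6 libraries, neither normalized nor pooled. HISAT 0.1.5, HOMER and bcl2fastq are named in the submitters' processing notes. How molecular identifiers were handled, and with which build and annotation, is not given in the sources used here, and no coordinates are printed. Of the per-sample columns 0 were left unused. CPM is a gene's count scaled to its library's total. Tests used edgeR 4.0.16 in R 4.3.3 (TMM scaling, filterByExpr by stage, stage as the only term, Benjamini-Hochberg threshold 0.05); log2 fold changes are adult minus L3, and each SE is the fold change over the square root of F. DESeq2 1.42.0 and limma 3.58.1 (voom) were alternatives. The fits were tested on simulated data. All 44 symbols are current in a RefSeq gene table, used for names alone, and neighbour orientation came from an Ensembl annotation. Counts were called shared between rows at most 10 apart, each with at least 30 counts, that differed by under 5% of their sum; with 10 to 29 counts they had to be identical. Intervals and floors (3 counts) cover counting error only. Genes with at least 30 counts are named with every library; of the rest, the highest of each family. The genes, lists and settings were chosen with earlier results of these data known. beat-IIIa was not analysed here.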

Additional observations from a re-analysis of the deposited data

Results flagged for a closer look

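In 4 of 17 gene or family levels checked over the adult libraries, 1 library lay far from the other 3 by Dixon's 95% criterion. Chance meets it in about 1 of 20 groups of normally spread values, a rate that does not hold for sparse counts, since any count beside 3 zeros meets it. beat-IIIc was at 20.2 CPM in adult library 4, where the next library had 1.10 CPM. dpr6 was at 36.2 CPM in adult library 2, next to 4.38 CPM. dpr4 was at 11.7 CPM in adult library 1, next to 2.68 CPM. dpr16 was at 2.50 CPM in adult library 1, from 3 counts, and had no count in the other 3. Adult library 1 was the high one for dpr4 and dpr16. The source of the single high values was not tested.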

How the results depend on the processing

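Family genes with a count, 37 in L3 and 40 in adult, numbered 26 to 30 and 33 to 39 with 1 library left out. They numbered 32 and 32 with a minimum of 3 counts, and 32 and 39 after thinning. With 2 libraries a stage they numbered 37 in L3 and 32 in adult, so the order of the stages depended on the setting. The count of called family genes, 1 higher and 0 lower, was 0 higher with the earlier quasi-likelihood method and 0 higher with the replicate block; 1 was lower without the filter and 1 with 1 row per group of neighbours. Leaving out 1 library gave 0 to 2 higher and 0 to 1 lower: without L3 library 1 the call of dpr18 was lost, without adult library 2 DIP-iota was called too (adjusted p = 0.0306), and dpr16 was called lower without L3 library 1 or adult library 1, 2 or 3. The fold change of dpr18 stayed positive in all 16 alternatives, from 1.56 to 3.37, with adjusted p from 0.0126 to 0.227. dpr3 changed sign: its log2 fold change ran from -1.01 to 1.20 with 1 library left out, positive without L3 library 1 or adult library 1 (0.26) or 2 (0.08). Over all genes, 876 higher and 1188 lower became 521 and 558 with the earlier method, 540 and 711 with 1 row per group (fewer rows tested), 308 and 193 with the replicate block, 763 and 674 with DESeq2, and 403 to 1020 and 509 to 1189 with 1 library left out. A fit with 1 L3 library assumes that it varies like the adult ones. The block used the 4 libraries that share numbers 1 and 2. The differences between those libraries correlated at 0.0082 between stages. With 1 such difference per stage, that value cannot show whether libraries of the same number share a batch. The same 4 libraries without the block, a setting chosen after seeing the data, gave 779 and 889 calls. There beat-IIIb was the only family gene called (edgeR adjusted p = 0.0467). Except where given, the cause of these changes was not tested. The counts of 33 family genes were too low to test.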

Other observations

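A further 9 genes of these families stand in the table under other symbols, found through RefSeq synonyms: DIP-kappa, DIP-lambda and the Side relatives side-II to side-VIII. They had 5 to 110 counts each, and 3 could be tested, none with a call (edgeR adjusted p = 0.707 to 0.963). The most abundant was side-II (CG42313), at 7.19 and 22.4 CPM in L3 and at 1.67, 1.34, 20.8 and 20.2 CPM in adult, with adult libraries 1 and 2 below L3 and 3 and 4 inside its range. side-VI (CG34114) had counts in every library, at 0.757 and 13.0 CPM in L3 and 2.33 to 12.1 CPM in adult. DIP-lambda (CG45781) had 17 counts in L3 library 2, none in L3 library 1 and 2 to 6 in each adult library. Relatives of Side were thus detected in more libraries than side itself, which had counts in 1. By near-identical counts side-V, which was tested, was grouped with CG13545, and side-VII with FoxP and alphaTub85E. The counts of side-V and side-VII cannot be assigned to the Side relatives alone.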
